A study of Homo sapiens with 8 samples.

Results

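The BCL2 family described here comprised 10 genes, chosen by name, out of 60196 gene symbols counted in P-body and cytosolic RNA of 2 human leukaemia lines. They were the anti-apoptotic members MCL1, BCL2 and BCL2L1 (which encodes BCL-XL), the pore-forming effectors BAX and BAK1, and the BH3-only members BCL2L11 (BIM), BID, BBC3 (PUMA), PMAIP1 (NOXA) and BAD. All 10 symbols stood on a single row in both count tables. The libraries formed 4 groups of 2, namely MOLM-13 P-body, MOLM-13 cytosol, HEL P-body and HEL cytosol. MOLM-13 is an established acute myeloid leukaemia line of monocytic character, and HEL is an established erythroleukaemia line. Both were grown in RPMI medium with serum, L-glutamine, beta-mercaptoethanol and antibiotics, and the labels name no drug and no genetic change for either. Each line is a single model of its disease, and nothing in the labels says that both replicates of a group came from separate cultures. The p-values therefore set each difference against how far these libraries vary, possibly for technical reasons alone.

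Cells commit to mitochondrial apoptosis when BAX and BAK1 form pores in the outer mitochondrial membrane. MCL1, BCL2 and BCL-XL hold these effectors in check, and BH3-only proteins release them by occupying the anti-apoptotic proteins or by activating the effectors directly. Myeloid leukaemias depend on BCL2, MCL1 or BCL-XL to different degrees, and BCL2 is the target of venetoclax. P-bodies are cytoplasmic granules that hold messenger RNA with proteins of translational repression and decay, so an mRNA that is abundant in them is not necessarily translated in proportion to its level.

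The libraries held 9868469 to 11000536 counts in MOLM-13 P-body, 5897625 to 7098927 in MOLM-13 cytosol, 17058567 to 18071473 in HEL P-body and 13153551 to 15569634 in HEL cytosol. In sum, lineage markers fitted the line labels. The 12 monocytic markers summed to 1318 to 1942 CPM (counts scaled to the library total) in MOLM-13 libraries and to 125 to 184 CPM in HEL libraries. MPO was the largest part (4919 to 7736 counts per MOLM-13 library), while CD14 had 14 to 27 and ITGAM 40 to 62. Between the cytosols 11 of the 12 were higher in MOLM-13, and MEIS1 was lower (130 and 160 against 825 and 864 counts). The 12 erythroid and megakaryocytic markers summed to 19.2 to 37.0 CPM in MOLM-13 and 1402 to 3337 CPM in HEL. A list of 10 lymphoid, stromal and endothelial markers summed to 146 to 442 CPM, of which PECAM1, also made by myeloid cells and platelets, gave most. CD3D reached 222 to 324 counts per MOLM-13 library, while MS4A1, which defines B cells, was at 0 to 3 counts in every library. A set of 7 nuclear-retained and mitochondrially encoded RNAs summed to less in P-body than in cytosolic libraries of each line, at 5158 to 5196 against 9980 to 10390 CPM in MOLM-13 and at 3054 to 3211 against 5766 to 6484 CPM in HEL.

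The transcripts of the family differed widely in composition, and these differences are shown first because P-body changes correlated with GC content across genes. In the principal transcripts of GENCODE release 29 on GRCh38, PMAIP1 (chr18:59899948-59904306) had a GC content of 37.2%, at the 4.8th percentile of 12877 tested coding genes. MCL1 (chr1:150574551-150579738), BCL2 (chr18:63123346-63320128), BCL2L11 (chr2:111119378-111168447) and BID (chr22:17734138-17774770) lay between 45.1% and 49.7%. BCL2L1 (chr20:31664452-31723989), BAK1 (chr6:33572547-33580293) and BAX (chr19:48954815-48961798) lay between 56.9% and 60.7%. BAD (chr11:64269830-64284704) and BBC3 (chr19:47220822-47232766) were the richest in GC, at 66.3% and 69.7%, the 97.7th and 99.6th percentiles. BCL2 had the longest 3' untranslated region, 5282 bases, and BAX the shortest, 165 bases.

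The pentamer ATTTA, the core of AU-rich elements that recruit decay and repression factors, was counted on the transcript strand of each 3' untranslated region. It occurred 13 times in BCL2, 10 times in MCL1, 5 times in PMAIP1, 3 times in BCL2L1, 2 times in BID and once in BCL2L11, and not at all in BAX, BAK1, BBC3 and BAD. Only the principal transcripts were scanned. That of BCL2L11 has 1522 bases, against 5086 in its transcript with the longest coding sequence, so its count may miss copies. Among 12863 tested coding genes, 68.8% had at least 1 ATTTA there, against 6 of the 10 members. For the 3 members with the most copies, the 29-base stretch with the highest number of ATTTA is given, with the BAD stretch richest in A and T as the contrast. Capitals mark ATTTA, and the letters are those of the DNA strand that reads as the mRNA.
BCL2: ttattaagaaaaaaagATTTATTTATTTA
MCL1: taATTTAactggtgaaATTTAaagtgaat
PMAIP1: aataattttATTTAttttgcctATTTAta
BAD: ggccgtgctcactaccaaatgttaataaa
The stretches began at bases 239, 1136, 1214 and 336 of the 3' untranslated regions, in that order, and held 3, 2, 2 and 0 copies. Of 771468 adjoining 29-base stretches in the 3' untranslated regions of 12909 detected coding genes, 5.45% held at least 1 ATTTA and 0.279% at least 2. These background stretches were not selected, whereas those printed were the richest of their regions. The shares therefore do not measure how unusual the printed stretches are. A match describes these letters only and is not evidence of a bound factor.

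In MOLM-13, 2 of the 10 members rose in P-bodies (PMAIP1 and BCL2) and 2 fell (BAX and BAD), by edgeR's quasi-likelihood test at a Benjamini-Hochberg adjusted p below 0.05. Over all 14089 genes tested in this line, 60.8% were called, 32.4% higher and 28.5% lower, so both counts were below or near the background. The median log2 change of the members was -0.13 and that of all tested genes -0.04. Values in this comparison are CPM scaled by TMM size factors within MOLM-13, and changes are P-body over cytosol, relative to the bulk of genes in a library and not to an amount of RNA.

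**Figure D1:**
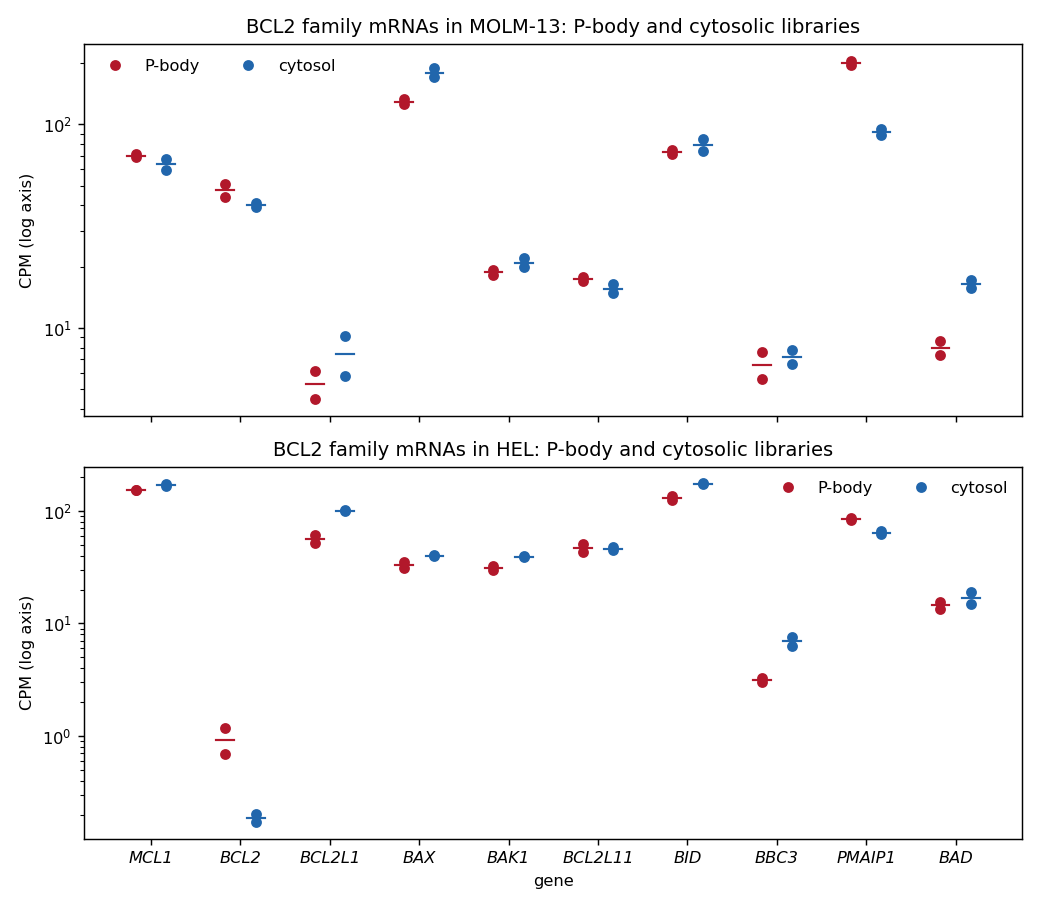
CPM (log axis) of the 10 members in P-body (red) and cytosolic (blue) libraries of MOLM-13 (upper panel) and HEL (lower panel), with each library as a point and the mean of 2 as a bar. PMAIP1 stood apart most clearly in MOLM-13, with 194 and 205 CPM in P-bodies against 88.1 and 94.9 CPM in the cytosol.

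PMAIP1, whose product NOXA binds MCL1 and promotes its degradation, had the largest rise in MOLM-13 among the 10 members described here. It had 205 and 194 CPM in MOLM-13 P-bodies, against 94.9 and 88.1 CPM in the cytosol. The P-body libraries did not overlap with the cytosolic ones, and the level was 2.19-fold higher (log2 change 1.13 ± 0.063, SE, edgeR adjusted p = 4.5e-14). Under the removal of the trend on GC content and transcript length this change was 0.30, still called (edgeR adjusted p = 0.000197).

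BCL2 had 50.8 and 43.8 CPM in MOLM-13 P-bodies, against 39.3 and 41.2 CPM in the cytosol. The libraries did not overlap, but the 1.18-fold rise passed the threshold only narrowly (log2 change 0.24 ± 0.098, SE, 95% interval 0.03 to 0.44, edgeR adjusted p = 0.0403). DESeq2 did not call it (adjusted p = 0.165), nor did the filter of CPM of at least 5 (0.14) or the fit of all 8 libraries (0.12). Leaving out P-body replicate 1 (0.14), cytosol replicate 1 (0.23) or cytosol replicate 2 (0.29) also ended the call. Scaling by library totals (-0.20) and removing the trend on GC content and transcript length (-0.12) turned its sign.

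BAX, a pore-forming effector, was abundant in MOLM-13 and lower in its P-bodies. It had 133 and 125 CPM in P-bodies, against 188 and 171 CPM in the cytosol, which is 1.39-fold lower (log2 change -0.47 ± 0.062, SE, edgeR adjusted p = 3.9e-07). After correction for GC content and transcript length it was called in the opposite direction (0.29, edgeR adjusted p = 0.000288). BAD, which binds BCL2 and BCL-XL when it is not phosphorylated, had 8.60 and 7.35 CPM in P-bodies, against 17.1 and 15.6 CPM in the cytosol. It was 2.04-fold lower (log2 change -1.03 ± 0.17, SE, edgeR adjusted p = 1.5e-05), and with that trend removed the change was -0.15 and no longer called.

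The remaining 6 members were not called in MOLM-13, but several were under other settings. MCL1, an anti-apoptotic protein with a short half-life, had 71.0 and 69.2 CPM in P-bodies and 67.7 and 59.9 CPM in the cytosol (log2 change 0.14, 95% interval -0.03 to 0.31). It was called higher without cytosol replicate 1 (0.25), and lower under library totals (-0.30) and with the GC and length trend removed (-0.26). BCL2L1 was scarce, with 42 and 52 counts in P-bodies and 62 and 48 in the cytosol, and its log2 change of -0.48 was not called (edgeR adjusted p = 0.103). It was called lower with CPM of at least 5 (-0.57), in the fit of all 8 libraries (-0.59), under library totals (-0.92), and without P-body replicate 2 (-0.70) or cytosol replicate 2 (-0.78). BAK1, the other effector, had a log2 change of -0.16 (95% interval -0.43 to 0.12) and was called lower under library totals (-0.59). The BH3-only members were BCL2L11 (0.15, 95% interval -0.15 to 0.45), BID (-0.12, -0.285 to 0.041) and BBC3 (-0.14, -0.60 to 0.32). The P-body and cytosolic libraries overlapped for BID and BBC3. BID was called lower with CPM of at least 5 (-0.21), in the fit of all 8 libraries (-0.23), with the GC and length trend removed (-0.20) and under library totals (-0.56). BBC3 was called lower under library totals (-0.58) and higher with the GC and length trend removed (0.78).

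In HEL, PMAIP1 rose in P-bodies and 4 members fell, namely BCL2L1, BBC3, BID and BAK1. These were 1 and 4 of 9 members tested, against 54.6% of all 14772 tested genes called, 27.5% higher and 27.1% lower. BCL2 had too few counts to be tested. The median log2 change of the 9 members was -0.26, against -0.06 over all tested genes. When libraries were scaled by their totals, the all-gene median was -0.39 in HEL and -0.48 in MOLM-13. Of the genes called under that scaling, 28.9% were higher in MOLM-13, against 53.2% with TMM, and HEL moved alike, with 6761 lower and 2762 higher. Under library totals 0 of the 9 HEL members were higher and 8 lower, and 1 of the 10 MOLM-13 members was higher and 7 lower.

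BCL2L1, which encodes the anti-apoptotic protein BCL-XL that erythroid and megakaryocytic cells rely on, had 51.4 and 61.5 CPM in HEL P-bodies, against 99.4 and 101 CPM in the cytosol. Both P-body libraries were well below both cytosolic ones, and the level was 1.78-fold lower (log2 change -0.83 ± 0.098, SE, edgeR adjusted p = 3.9e-06). With the GC and length trend removed the change was -0.37, still called. MCL1 was not called, with 155 and 154 CPM in P-bodies and 172 and 166 CPM in the cytosol (log2 change -0.13, 95% interval -0.29 to 0.03, edgeR adjusted p = 0.147), but was called lower with that trend removed (-0.33) and under library totals (-0.46).

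BCL2 was near the limit of detection in HEL. It had 11 and 18 counts in the P-body libraries, against 3 and 3 in the cytosolic ones. The scaled ratio over the summed counts was 4.95, with an exact 95% counting interval of 2.02 to 14.6 that covers counting error only. With no filter on low counts its log2 change was 2.26 (edgeR adjusted p = 0.00139). The fit of all 8 libraries also called it (2.32), but there BCL2 passed the count filter through its MOLM-13 counts. Its log2 change was 2.60 without P-body replicate 1 and 2.37 without cytosol replicate 1. Without cytosol replicate 2 it was 2.14 and not called. Without P-body replicate 2 BCL2 again had too few counts to be tested. All these fits use the same few HEL counts and are not separate support for a rise.

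Among the BH3-only members, BBC3, a p53 target in many cells, had 3.01 and 3.25 CPM in HEL P-bodies, against 6.32 and 7.61 CPM in the cytosol. It was 2.23-fold lower (log2 change -1.15 ± 0.22, SE, edgeR adjusted p = 0.000494), and with the GC and length trend removed the change was -0.55 (edgeR adjusted p = 0.0492). BID, which links death receptor signalling to mitochondria once caspases cleave it, had 124 and 134 CPM in P-bodies, against 175 and 175 CPM in the cytosol. It was 1.36-fold lower (log2 change -0.44 ± 0.078, SE, edgeR adjusted p = 0.000215).

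PMAIP1 had 83.7 and 86.4 CPM in HEL P-bodies, against 65.6 and 62.4 CPM in the cytosol. The libraries did not overlap, and the level was 1.33-fold higher (log2 change 0.41 ± 0.087, SE, edgeR adjusted p = 0.000977). This rise did not hold under every setting, since it was 0.08 and not called under library totals, and after correction for GC content and transcript length PMAIP1 was called lower (-0.43, edgeR adjusted p = 0.000275).

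Of the effectors, BAK1 had 32.2 and 29.7 CPM in HEL P-bodies, against 38.9 and 39.6 CPM in the cytosol, and was 1.27-fold lower (log2 change -0.34 ± 0.11, SE, edgeR adjusted p = 0.014). DESeq2 did not call it (adjusted p = 0.0978), nor did the fit without P-body replicate 2 (log2 change -0.20), and it turned to 0.16 with the GC and length trend removed. BAX fell just short of the threshold, with 31.0 and 35.5 CPM in P-bodies and 39.3 and 40.3 CPM in the cytosol (log2 change -0.26, edgeR adjusted p = 0.0572). It was called lower with CPM of at least 5 (-0.28) and under library totals (-0.59), and higher with the GC and length trend removed (0.24, edgeR adjusted p = 0.0325). BCL2L11 (0.03) and BAD (-0.23) were not called, and their P-body and cytosolic libraries overlapped. Both were called lower under library totals (-0.29 and -0.55), and BAD also without cytosol replicate 1 (-0.41).

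**Figure D2:**
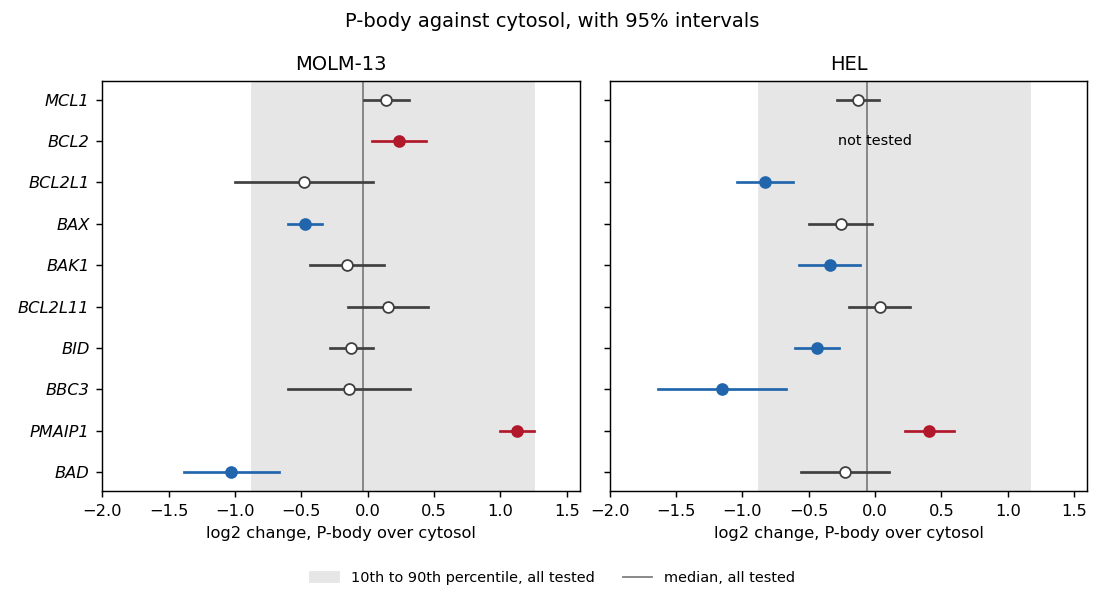
Log2 change of each member, P-body over cytosol, in MOLM-13 (left) and HEL (right). Points are edgeR estimates with 95% intervals, filled red when called higher, filled blue when called lower and open when not called, over the 10th to 90th percentile of all tested genes (grey) and their median (line). PMAIP1 is called higher in both panels, at 1.13 and 0.41.

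Across all coding genes, the P-body change fell as GC content rose, with a Spearman rho of -0.72 over 11231 genes in MOLM-13 and -0.67 over 11946 genes in HEL. This is a correlation across genes, which share libraries and are not replicates. Over the members it was -0.81 (10 genes) in MOLM-13 and -0.67 (9 genes) in HEL. PMAIP1, the member poorest in GC, had the most positive change of the members tested in each line, where BCL2 was not tested in HEL. The most negative change was that of BAD in MOLM-13 and of BBC3 in HEL. The part of GC content in these changes was addressed only by removing the fitted trend, under which 4 of the called changes above turned in sign (PMAIP1 and BAK1 in HEL, BAX and BCL2 in MOLM-13).

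**Figure D3:**
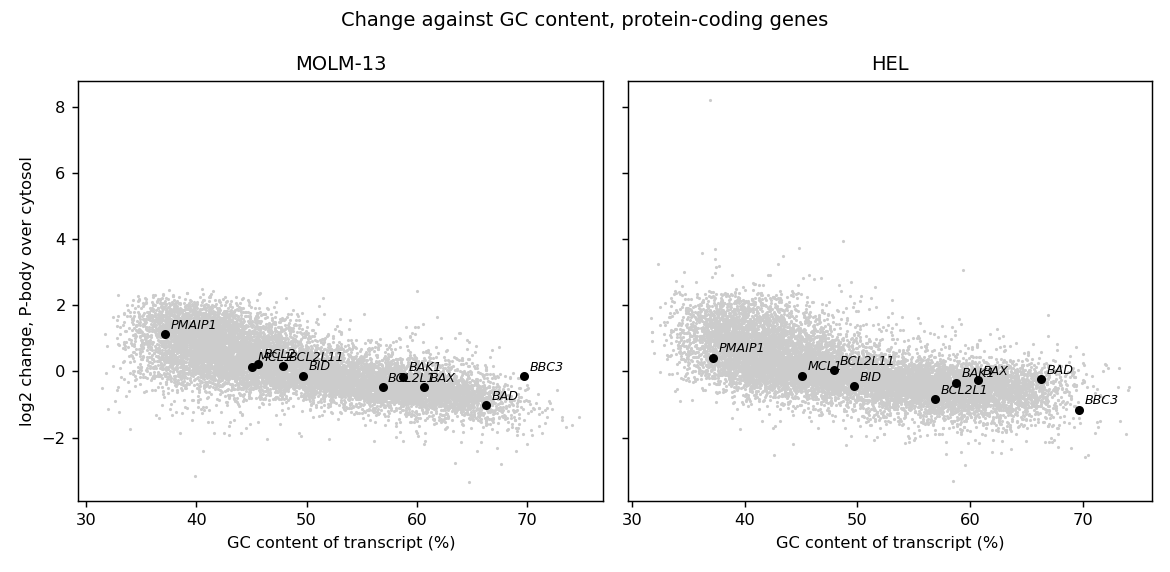
Log2 change, P-body over cytosol, against the GC content of the principal transcript in MOLM-13 (left) and HEL (right). Grey points are tested protein-coding genes and black points the members, which run from PMAIP1 at 37.2% GC to BBC3 at 69.7%.

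The difference between the lines was tested as an interaction, MOLM-13 minus HEL, in a fit of all 8 libraries. It was called for 4 of 10 members, higher for PMAIP1 and lower for BAX, BAD and BCL2, against 22.2% of 17477 tested genes called, 9.15% higher and 13% lower. PMAIP1 was shifted to P-bodies more in MOLM-13 than in HEL, by 0.53 ± 0.11 on the log2 scale (SE, edgeR adjusted p = 0.00102), and this call held in each alternative, from 0.45 to 0.85. BAD was shifted less, by -0.99 ± 0.24 (SE, edgeR adjusted p = 0.00475), although the call was lost without HEL cytosol replicate 1 (-0.52) and with the GC and length trend removed (-0.51).

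The BAX difference of -0.40 ± 0.12 (SE, edgeR adjusted p = 0.0204) lay below the median of all genes, -0.11, and was lost in 11 of the alternatives, among them RLE factors (-0.33) and the fits without HEL P-body replicate 1 (-0.18), HEL cytosol replicate 1 (-0.09) or HEL cytosol replicate 2 (-0.13). Without HEL P-body replicate 2 (-0.31), MOLM-13 P-body replicate 2 (-0.36) or MOLM-13 cytosol replicate 1 (-0.34) it was lost as well. The fit of all 8 libraries gave BAX changes of -0.59 in MOLM-13 and -0.18 in HEL, against -0.47 and -0.26 within each line. Differences from that fit are therefore not those between the within-line changes given above. Under library totals 51.7% of all called differences were higher, against 41.3% with TMM. The BCL2 difference of -2.20 ± 0.54 (SE, edgeR adjusted p = 0.00477) rests on the 3 and 3 counts in HEL cytosol, and was lost without HEL P-body replicate 2 (-1.79) or HEL cytosol replicate 2 (-1.80). For the 6 members not called, the difference was 0.08 for MCL1 (95% interval -0.15 to 0.31), 0.13 for BID (-0.12 to 0.37), -0.01 for BAK1 (-0.36 to 0.35), -0.07 for BCL2L11 (-0.45 to 0.30), 0.16 for BCL2L1 (-0.38 to 0.71) and 0.83 for BBC3 (0.16 to 1.49, edgeR adjusted p = 0.07). BBC3 passed the threshold without HEL P-body replicate 1 (1.09), HEL cytosol replicate 1 (1.25) or MOLM-13 P-body replicate 1 (1.04), with RLE factors (0.90), under library totals (0.91) and with the GC and length trend removed (1.36). MCL1 passed it without HEL P-body replicate 1 (0.40) or HEL cytosol replicate 2 (0.39), and BID without HEL P-body replicate 1 (0.38), HEL cytosol replicate 1 (0.43) or HEL cytosol replicate 2 (0.42). The all-gene median, -0.11 in the main fit, moved as well. It was 0.19 without HEL P-body replicate 1, 0.17 without HEL cytosol replicate 1 and 0.14 without HEL cytosol replicate 2. Member values from these fits include that shift.

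Among the 10 members, the cytosol of MOLM-13 and that of HEL differed most in the anti-apoptotic BCL2 and BCL2L1. Of 10 members, 3 were higher in MOLM-13 (BCL2, BAX and PMAIP1), 5 were lower (BCL2L1, MCL1, BCL2L11, BID and BAK1) and BAD and BBC3 were not called. Most genes differed between the lines, with 87.1% of 16158 tested genes called, 43.4% higher and 43.8% lower, so a called difference is common here and its size is the informative part. Line and any batch of culture or sequencing cannot be told apart, and a lower level in bulk RNA does not tell fewer expressing cells from less RNA per cell. Values in this comparison are CPM scaled over the 4 cytosolic libraries and therefore differ from those given within a line.

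BCL2 had 45.7 and 48.0 CPM in MOLM-13 cytosol, against 0.228 and 0.193 CPM in HEL cytosol, where each library had 3 counts. The ratio of scaled summed counts was 225, with an exact 95% counting interval of 103 to 615. BCL2L1 showed the reverse, with 10.7 and 6.78 CPM in MOLM-13 and 111 and 113 CPM in HEL, 13.1-fold lower in MOLM-13 (log2 change -3.71 ± 0.14, SE, edgeR adjusted p = 1.2e-20). Opposite to BCL2L1, BAX was 4.70-fold higher in MOLM-13, with 219 and 200 CPM, against 43.9 and 45.0 CPM in HEL (log2 change 2.23 ± 0.085, SE, edgeR adjusted p = 1.9e-20). The BAX change was 0.98, still called, with the GC and length trend removed.

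MCL1 was 2.54-fold lower in MOLM-13, with 78.9 and 69.9 CPM, against 192 and 186 CPM in HEL (edgeR adjusted p = 3.4e-15), and its log2 change of -1.35 was -0.68 with that trend removed, still called. BID was 2.10-fold lower, with 86.0 and 99.1 CPM in MOLM-13 against 195 and 195 CPM in HEL, and BAK1 was 1.80-fold lower, with 25.6 and 23.2 CPM against 43.4 and 44.2 CPM. PMAIP1 was 1.49-fold higher in MOLM-13 cytosol, with 111 and 103 CPM, against 73.3 and 69.7 CPM in HEL. BAD (log2 change 0.00, 95% interval -0.32 to 0.32) and BBC3 (0.11, -0.32 to 0.54) overlapped between the lines, but both were called lower in MOLM-13 with the GC and length trend removed (-1.46 and -1.30).

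BCL2L11 was 2.81-fold lower in MOLM-13 cytosol, with 17.2 and 19.2 CPM, against 53.0 and 49.9 CPM in HEL (edgeR adjusted p = 5.7e-12). Its gene shares 727 exonic bases with the long noncoding gene MIR4435-2HG on the opposite strand, and whether the counting used strand is not stated. MIR4435-2HG moved the same way, with 11.4 and 9.74 CPM in MOLM-13 cytosol against 119 and 119 CPM in HEL cytosol, and rose in HEL P-bodies (log2 change 0.87). Its part in the BCL2L11 counts was not tested. BAD likewise shares 404 exonic bases with GPR137 on the opposite strand, which fell in MOLM-13 P-bodies (log2 change -1.17) and HEL P-bodies (-0.41), and its part was not tested. The named pseudogene copies of BAK1 had 0 to 5 counts per library.

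**Figure D4:**
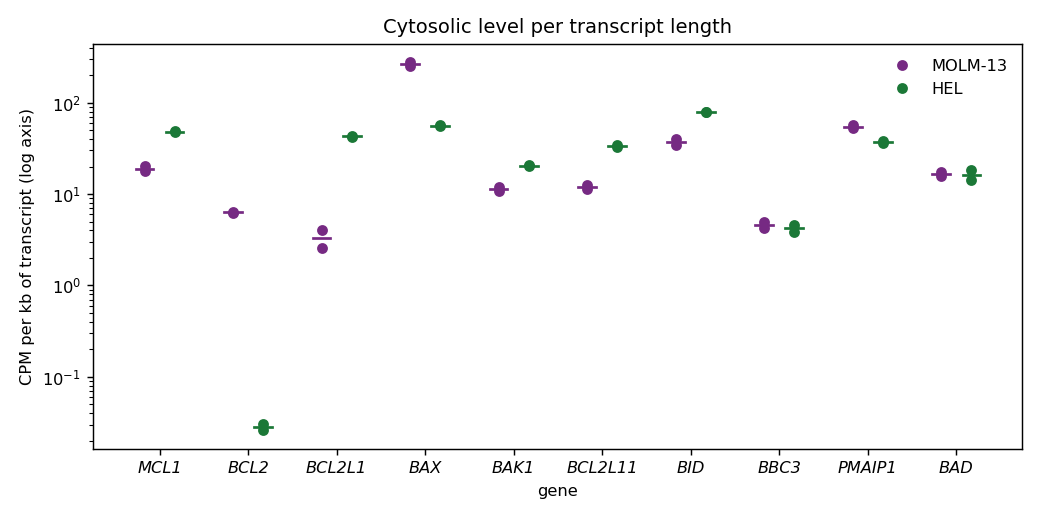
Cytosolic CPM per kb of principal transcript (log axis) for the 10 members in MOLM-13 (purple) and HEL (green), with each library as a point and the mean of 2 as a bar. BCL2 averaged 6.28 in MOLM-13 and 0.0282 in HEL, and BCL2L1 averaged 3.34 in MOLM-13 and 42.9 in HEL.

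To compare genes with each other, levels were divided by the length of the principal transcript. In MOLM-13 cytosol BAX led with 264 ± 17.2 CPM per kb (SD, n = 2), followed by PMAIP1 (54.8), BID (37.1), MCL1 (18.9), BAD (16.5), BCL2L11 (12.0), BAK1 (11.4), BCL2 (6.28), BBC3 (4.56) and BCL2L1 (3.34). In HEL cytosol BID led with 78.3 ± 0.12 CPM per kb (SD, n = 2), followed by BAX (56.1), MCL1 (48.0), BCL2L1 (42.9), PMAIP1 (36.7), BCL2L11 (33.8), BAK1 (20.5), BAD (16.4), BBC3 (4.23) and BCL2 (0.0282). Among neighbours in these orders, BCL2L11 and BAK1 in MOLM-13 overlapped between libraries and the others did not. The order depends on which transcript is taken for BAX, BCL2L11 and PMAIP1. With the transcript of the longest coding sequence, chosen after seeing the data, BAX had 154 CPM per kb in MOLM-13 and 32.7 in HEL, where it then ranked 5, and BCL2L11 had 3.58 and 10.1, while PMAIP1 had 84.5 and 56.7.

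Within the anti-apoptotic trio MCL1, BCL2 and BCL2L1, shares were computed from counts per transcript length in each library. MCL1 made up 67.9% and 68.2% in MOLM-13 P-bodies and 66.3% and 66.3% in the cytosol, and 66.5% and 62.3% in HEL P-bodies and 53.4% and 52.2% in the cytosol. BCL2 took 25.6% and 22.7% in MOLM-13 P-bodies and 20.2% and 24.0% in the cytosol, but 0.156% and 0.25% in HEL P-bodies and 0.0334% and 0.0286% in the cytosol. BCL2L1 took 6.43% and 9.14% in MOLM-13 P-bodies and 13.5% and 9.69% in the cytosol, and 33.3% and 37.5% in HEL P-bodies and 46.5% and 47.8% in the cytosol. In both lines the BCL2L1 share was lower in each P-body library than in each cytosolic one, and the MCL1 share was higher. For MOLM-13 the nearest BCL2L1 shares were 9.14% and 9.69%, and BCL2L1 CPM overlapped and was not called in the main fit. MCL1 was called in neither line's main fit, and the shares are tied to a fixed sum.

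**Figure D5:**
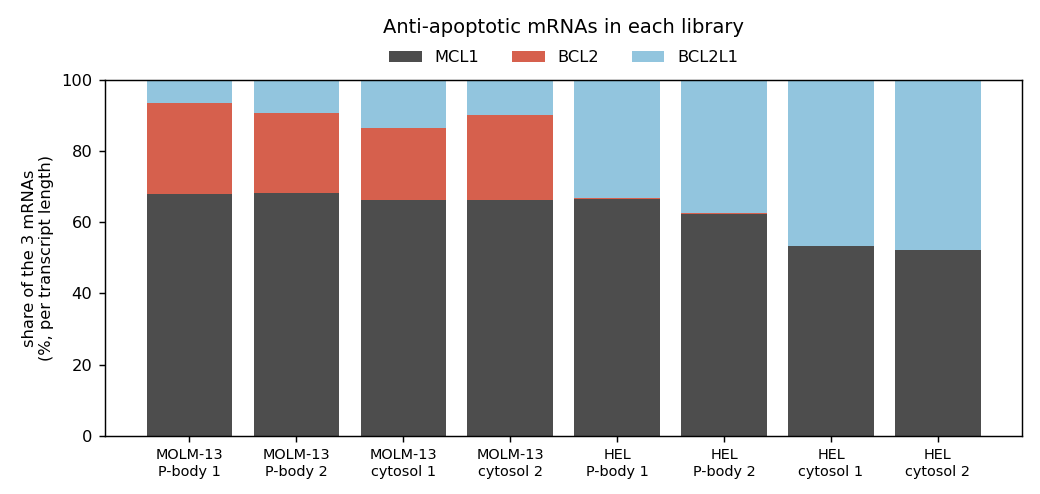
Share of MCL1, BCL2 and BCL2L1 in the sum of the 3, from counts per transcript length, in each of the 8 libraries. BCL2 fills 20.2% to 25.6% of each MOLM-13 bar, and the second largest share in HEL is that of BCL2L1.

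The genes closest to a member over the 8 libraries were found by the root mean square difference of centred log2 CPM among 17477 genes. For MCL1 they included XRCC6 (0.059) and CFAP20 (0.076), for BCL2L11 they were C1orf174 (0.075), RANBP17 (0.080) and RASSF5 (0.098), and for BCL2 they were SIGLEC17P (0.322), TENT5A (0.341) and CCDC144NL-AS1 (0.343).

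Other genes of the pathway were read from 5 lists, whose counts stand beside 60.8% of all tested genes called in MOLM-13 (32.4% higher, 28.5% lower) and 54.6% in HEL (27.5% and 27.1%), with all-gene medians of -0.04 and -0.06. Of the 12 other BCL2 family members, 9 were tested in MOLM-13 P-bodies, with 3 higher and 3 lower (median log2 change -0.15), and 6 in HEL P-bodies, with 2 higher and 1 lower (0.24). BNIP3L, a receptor for the removal of mitochondria, rose in both, 2.25-fold in MOLM-13 (190 ± 3.58 against 84.2 ± 1.61 CPM, SD, n = 2) and 1.85-fold in HEL. Its log2 changes of 1.17 and 0.89 were 0.33 and 0.16 once the GC and length trend was removed. The anti-apoptotic BCL2A1 rose 3.36-fold in MOLM-13 P-bodies (91.2 ± 2.46 against 27.0 ± 2.72 CPM, SD, n = 2). In HEL it had 11 and 11 counts in P-bodies and 5 and 3 in the cytosol and was not tested. BCL2L13, a mitochondrial relative, was higher in MOLM-13 (log2 change 0.88) and HEL P-bodies (0.76), BCL2L12 (-0.88) and BMF (-0.71), a BH3-only gene, were lower in MOLM-13 P-bodies, and BNIP3 was lower in HEL P-bodies (-0.50).

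All 18 apoptosome, caspase and IAP genes were tested. MOLM-13 P-bodies had 11 of them higher and 3 lower, HEL P-bodies 7 and 5, with median log2 changes of 0.60 and -0.08 in the same order. CYCS, which encodes the cytochrome c that BAX and BAK1 pores let out, was 2.41-fold higher in MOLM-13 P-bodies (411 ± 10.4 against 170 ± 12.7 CPM, SD, n = 2), and AIFM1, an oxidoreductase of the intermembrane space, was 2.02-fold higher. CYCS was 1.28-fold higher in HEL, and its MOLM-13 log2 change of 1.27 was 0.60 with the GC and length trend removed. The lowest p-values among those that fell in MOLM-13 were those of BIRC5, or survivin (log2 change -0.39), and ENDOG, a mitochondrial nuclease (-1.15, not called with the GC and length trend removed). In HEL, XIAP, a direct caspase inhibitor, was 3.08-fold higher (87.8 ± 0.59 against 28.5 ± 2.38 CPM, SD, n = 2), and it was 1.75-fold higher in MOLM-13. The HEL log2 change of XIAP, 1.62, was 0.85 with the trend removed. The initiators CASP2 (-0.60) and CASP9 (-0.49) were lower in HEL. The CASP9 call was lost with the trend removed (-0.11) and without P-body replicate 2 (-0.39).

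MOLM-13 P-bodies had 5 of 8 death receptor and adaptor genes higher and 2 lower, and HEL P-bodies 2 and 3 of 7 tested, with median log2 changes of 0.47 and -0.33. TNFRSF10B, a TRAIL receptor, was 2.20-fold higher in MOLM-13 P-bodies, and RIPK1, a kinase of the receptor complex, was called higher there (log2 change 0.64) and lower in HEL P-bodies (-0.365). The MOLM-13 call of RIPK1 was lost under library totals (0.20), and the HEL call with DESeq2 (-0.31) and without P-body replicate 2 (-0.29). The RIPK1 difference between the lines, MOLM-13 minus HEL, was 0.81 ± 0.15 on the log2 scale (SE, edgeR adjusted p = 0.000424). It was called in each alternative, from 0.74 to 1.13. Of the pathway genes, only RIPK1 was followed through the alternatives for this difference, and it was picked with these data known. The p-value does not allow for that choice. The adaptor TRADD (-0.97) and TNFRSF1A (-0.28) were lower in MOLM-13. The TRADD call was lost with the GC and length trend removed (-0.30). The MOLM-13 call of TNFRSF1A was lost with that trend removed (0.05), DESeq2 (-0.27), no filter (-0.25), and without P-body replicate 1 (-0.11), cytosol replicate 1 (-0.22) or cytosol replicate 2 (-0.31). TNFRSF10A (0.77) and FAS (0.73) were higher and TNFRSF1A (-0.78) was lower in HEL, and the FAS call was lost with the trend removed (0.03). TNFRSF10A (0.46) and FAS (1.17) were also higher in MOLM-13.

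The 6 outer membrane channels and partners split into 4 higher and 2 lower for MOLM-13 and 2 and 2 for HEL, with median log2 changes of 0.25 and 0.00. In MOLM-13 those higher were VDAC1, VDAC2, VDAC3 and MTCH2, and those lower were TMBIM6 and BCAP31, listed as partners. The channel VDAC1 was 2.30-fold higher in MOLM-13 and 1.45-fold higher in HEL, VDAC3 had log2 changes of 1.11 and 0.37, and TMBIM6 (-0.47 and -0.18) and BCAP31 (-0.47 and -0.41) were lower in both, in that order of lines. With the GC and length trend removed, VDAC3 (-0.01) and BCAP31 (0.09) turned in sign in HEL, and the MOLM-13 call of BCAP31 was lost (edgeR adjusted p = 0.999). VDAC3 in HEL was not called under library totals (0.05). The HEL call of TMBIM6 was lost with RLE factors (-0.12), DESeq2 (-0.12), the fit of all 8 libraries (-0.10) and without P-body replicate 2 (-0.03), cytosol replicate 1 (-0.21) or cytosol replicate 2 (-0.15). Of 13 genes that modify or turn over the family's proteins, MOLM-13 P-bodies had 7 higher and 4 lower, and HEL P-bodies 4 and 6, with median log2 changes of 0.29 and -0.20. CUL5, a ubiquitin ligase scaffold, was 2.33-fold higher in MOLM-13 and 2.95-fold higher in HEL, and HUWE1, a ligase of MCL1, was 1.67-fold lower in MOLM-13 and 2.61-fold lower in HEL. YWHAZ, a member of the family that holds phosphorylated BAD, was 2.04-fold higher in MOLM-13 and 1.23-fold higher in HEL, and TRIB3 was lower in both (-0.53 and -0.76). With the GC and length trend removed the MOLM-13 log2 changes were 0.36 for CUL5 and 0.29 for YWHAZ, and TRIB3 was no longer called (-0.09). In HEL those of CUL5 and FBXW7 were 0.68 and 0.76. FBXW7, the substrate adaptor of another MCL1 ligase, was higher in MOLM-13 (0.71) and HEL (1.36). In HEL the kinases PIM2 and PIM1, which phosphorylate BAD, were 2.28-fold and 2.26-fold lower.

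Between the cytosols, where 87.1% of all tested genes were called (43.4% higher, 43.8% lower), the 9 tested other family members had 6 higher and 3 lower in MOLM-13. The BH3-only gene BIK had 212 and 252 counts in MOLM-13 against 3 and 0 in HEL, and BCL2A1 had 170 and 239 counts against 5 and 3. BNIP3 (log2 change -2.53) and BNIP3L (-1.20) were lower in MOLM-13. Of the 18 apoptosome, caspase and IAP genes, 4 were higher and 12 lower, with APAF1, the scaffold of the apoptosome, at 1.21, CASP2 at 0.89 and BIRC2 at -1.51. Of the 8 death receptor genes, 5 were higher and 3 lower, with TNFRSF10B at 314 and 456 counts in MOLM-13 against 4 and 4 in HEL, TRADD at 1.62, RIPK1 at -0.66 and FAS at -1.45. With the GC and length trend removed RIPK1 was no longer called (-0.09), and TRADD (0.87), BIRC2 (-0.79) and BNIP3L (-0.47) were smaller but still called, while FBXW7 was larger (1.48). The outer membrane list had 1 higher and 4 lower of 6, with BCAP31 at 0.19 (not called without HEL cytosol replicate 1, 0.10, and lower with the trend removed, -0.14), TMBIM6 at -0.95 and VDAC2 at -0.99. The turnover list had 2 higher (FBXW7 at 0.76 and HUWE1 at 0.60) and 8 lower of 13, and PIM2 was 17.3-fold and PIM1 14.6-fold lower in MOLM-13.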

How the data were processed

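P-body and cytosolic RNA (miRNeasy Micro extraction) was made into libraries with a NEBNext Ultra II kit, per the labels' protocols. The authors deposited 1 table of raw counts by gene symbol per line. STAR, SAMtools 1.12, DESeq2 and GRCh38 are named in the submitters' processing notes, and no source names the counter, annotation or strand setting. Of 61544 rows, 1348 with repeated symbols (112 symbols, 0.0193% to 0.0477% of counts per library) were left out, and 56985 of 60196 symbols were matched to GENCODE 29. Replicates differed beyond sampling noise in all 4 groups (chi-square per degree of freedom 1.87 to 6.15). Groups were compared with edgeR 4.0.16 in R 4.3.3 (quasi-likelihood test, TMM factors, filterByExpr with a smallest count of 10, Benjamini-Hochberg adjustment over all tested genes, threshold 0.05). Standard errors were taken from the fold change and the F statistic. The edgeR biological coefficient of variation was 0.0382 in MOLM-13 and 0.0781 in HEL. The code recovered known changes in simulated counts. The simulation changed a small set of well-counted genes, evenly up and down, so it does not cover scarce genes or broad shifts. Alternatives were RLE factors, library totals, DESeq2 1.42.0, other filters, a replicate block, removal of a GC and length trend (mgcv 1.9.3), all 8 libraries in one fit, and each library left out. Named genes were all 10 members and, per list and comparison, up to 2 called genes in each direction with the lowest p-values. A few genes that this rule names are not reported here. Members and lists were chosen with earlier results of these data known.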

Additional observations from a re-analysis of the deposited data

Results flagged for a closer look

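The P-body change of 4 members differed between the lines by the interaction test over all 8 libraries (edgeR, MOLM-13 minus HEL on the log2 scale). The difference was 0.53 for PMAIP1, -0.99 for BAD, -0.40 for BAX and -2.20 for BCL2. Among the pathway genes named, RIPK1 had a difference of 0.81. It was neither the only such gene nor the one that differed most. USP9X of the turnover list (1.19), BCL2L12 (-1.10), XIAP (-1.01), FBXW7 (-0.84), AIFM1 (0.76) and CYCS (0.72) were among the others called in that fit. The BCL2 value rests on 3 and 3 counts in HEL cytosol. The calls of BAX, BAD and BCL2 were each lost in alternatives given above. The median difference over all tested genes was -0.11, and without HEL P-body replicate 1, HEL cytosol replicate 1 or HEL cytosol replicate 2 it was 0.19, 0.17 and 0.14. The part of single HEL libraries in these differences is given by the values without them.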

How the results depend on the processing

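Of the member values under alternatives, 396 kept direction and side of the threshold, 25 lost their call, 30 gained one and 47 turned in sign. Of those of the other named genes 667 kept both, 24 lost their call and 5 turned. Replicate numbers were not used to pair the libraries in the main fits. The deviations of same-numbered libraries had correlations of -0.01 in MOLM-13 and -0.07 in HEL. With 2 replicates per group these cannot show whether same-numbered libraries came from the same culture. With a replicate block the calls were 4574 higher and 4015 lower in MOLM-13, 4024 and 3972 in HEL, 1547 higher for the line difference, and 6995 and 7061 between cytosols, and BAX in HEL was called (adjusted p = 0.0451). Under library totals the HEL members had 0 higher and 8 lower and the MOLM-13 members 1 and 7. Over all genes, library totals gave 6761 lower in HEL and 2903 higher and 7154 lower in MOLM-13, and DESeq2 gave 2623 lower in MOLM-13 and 1466 lower for the line difference. HEL members called higher were 2 with no filter and in the fit of all 8 libraries. MOLM-13 members called higher were 1 with DESeq2, with CPM of at least 5 and in the fit of all 8, and those lower were 4 in the last 2 of these. For the line difference, 2 members were higher with RLE factors, library totals and the GC and length trend removed, and 1 was lower with that trend removed. Leaving out each library gave 1 to 2 members higher and 2 to 3 lower in MOLM-13, 1 to 2 and 3 to 5 in HEL, 1 to 4 and 1 to 3 for the line difference, and 3 and 5 between cytosols, and 1198 to 3441 genes higher and 880 to 2054 lower for the line difference. With 1 library left in an arm, that library is assumed to vary like the others.

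Signs turned as follows, and the cause was not tested. Under library totals the log2 changes were -0.20 for BCL2, -0.30 for MCL1 and -0.29 for BCL2L11 in MOLM-13, -0.29 for BCL2L11 in HEL, and 0.00 for BAD between cytosols (-0.004). With the GC and length trend removed they were -0.12 for BCL2, -0.26 for MCL1, 0.29 for BAX, 0.22 for BAK1, 0.78 for BBC3 and 0.05 for TNFRSF1A in MOLM-13. In HEL they were 0.24 for BAX, 0.16 for BAK1, -0.43 for PMAIP1, 0.33 for BAD, 0.091 for BCAP31 and -0.01 for VDAC3 (-0.014), and between cytosols -1.30 for BBC3, -1.46 for BAD and -0.14 for BCAP31. With no filter the cytosol values were -0.13 for BBC3, -0.24 for BAD and -0.047 for BCAP31. For the line difference, BCL2L11 was 0.004 with RLE factors, 0.005 under library totals and with DESeq2 and 0.03 with the trend removed, and BAK1 was 0.068, 0.074, 0.067 and 0.062, and 0.061 with no filter. Leaving out a library gave -0.342 to 0.086 for BBC3 and -0.189 to 0.006 for BID in MOLM-13, -0.011 to 0.149 for BCL2L11 in HEL, -0.198 to 0.178 for BAD and -0.039 to 0.246 for BBC3 between cytosols, and for the line difference -0.074 to 0.370 for BAK1, -0.147 to 0.495 for BCL2L1, -0.149 to 0.258 for BCL2L11 and -0.001 to 0.399 for MCL1. Low counts limit BCL2 in HEL, BCL2L1 in MOLM-13 and BBC3 in both lines.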
